A study of Mus musculus with 29 samples.

Results

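The 10 genes described here, Klf4, Esrrb, Sall4, Zfp42, Prdm14, Utf1, Tet1, Fgf4, Lefty1 and Tdgf1, are named target genes of the pluripotency network of mouse embryonic stem (ES) cells. They were chosen by name from 21938 protein-coding genes of the mouse annotation and not by a cut on a measured value. Earlier results of these data were known when they were chosen. Each gene is described by the ChIP-seq peaks in its window, which is the gene body plus 50 kb on either side in the mm10 genome (a peak counted when 1 bp or more lay in the window). The windows spanned 101 kb to 261 kb, with a median of 113 kb against 117 kb over all protein-coding genes.

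The peaks came from NIH-3T3 cells, an established line of mouse fibroblasts, in which transcription factors (TFs) carrying HA tags were expressed from lentiviral vectors induced with doxycycline. All cells received 500 ng/ml of doxycycline overnight, and chromatin was pulled down with an antibody against the HA tag. The series holds 29 samples, of which 28 have a peak list and 1 is an input without a list. The 28 lists cover 24 constructs: 20 have 1 list, while SOX2-HA, OCT4-HA, FOXA1-HA and BHLHB8-HA were each done as 2 biological replicates. The 5 pluripotency-factor constructs are SOX2-HA, SOX15-HA, OCT4-HA, NANOG-HA and SOX2-YPET OCT4-HA, which hold 7 lists. In the last of these, cells expressed SOX2 fused to a yellow fluorescent protein together with HA-tagged OCT4, so the antibody reports OCT4. The other 19 constructs hold 21 lists and comprise BHLHB8-HA, BRACHYURY-HA, CDX2-HA, DLX1-HA, DLX6-HA, DUXBL-HA, EBF1-HA, FOXA1-HA, its mutants FOXA1_RR-HA and FOXA1_SW-HA, HLF-HA, MAX-HA, PRR3-HA, RHOX11-HA, SIX6-HA, TEAD1-HA, THAP4-HA, TOX3-HA and ZFP319-HA. The lists hold from 52 to 61991 peaks each, 304922 in all, and give positions without height, so the read depth behind a peak is unknown. Each list comes from an expressed transgene in fibroblasts, and none measures a factor at its own level in ES cells.

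In ES cells, OCT4 (encoded by Pou5f1), SOX2 and NANOG bind many of the same enhancers and keep their own genes and a set of further targets active. SOX2 and OCT4 often bind side by side on a composite element, in which a SOX motif is followed within a few bases by an octamer motif. The enhancer in the last exon of Fgf4 and the enhancer downstream of Utf1 are classic examples of such elements. Fibroblasts keep most of these target genes silent, with Klf4 as an exception.

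The composite element was searched as the SOX letters CNTTGT, then 1 or 4 bases of any kind, then the octamer letters ATGCNANT, on both strands of the mm10 sequence. The 10 windows held 3 matches, which are shown because they include the Fgf4 and Utf1 enhancer elements. Capitals mark the whole match, read on the strand of the SOX motif. The Fgf4 match lies in the 3′ UTR at chr7:144864394-144864411 on the plus strand, the Utf1 match beyond the 3′ end of the gene at chr7:139945681-139945695 on the minus strand, and the match in the Tet1 window in an intron of the neighbour Slc25a16 at chr10:62941255-62941272 on the plus strand.
Fgf4 3′ UTR: aaaactCTTTGTTTGGATGCTAATgggata
Utf1 downstream: agccgtCATTGTTATGCTAGTgaagtg
Slc25a16 intron: gtctgaCATTGTGATCATGCTATTctcttc

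None of the 3 composite matches lay under a peak of any of the 28 lists. Over the windows of all protein-coding genes, 53 of 1472 such matches (3.60%) lay under a peak of some list, so a count of 0 among 3 does not set these windows apart. The Fgf4 element was 2.38 kb from the nearest peak, which belonged to TEAD1-HA. The Utf1 element was 1.24 kb from the nearest peak, also of TEAD1-HA. The nearest SOX2-HA peaks were 180 kb and 106 kb away from the Fgf4 and Utf1 elements, and the nearest SOX2-YPET OCT4-HA peaks 183 kb and 832 kb away. Of 2482 matches in the whole genome, 18 lay under a SOX2-HA peak, 4 under a SOX15-HA peak, 2 under a SOX2-YPET OCT4-HA peak and 0 under an OCT4-HA or NANOG-HA peak. Other constructs also covered such matches, with 29 for BHLHB8-HA, 11 for CDX2-HA and 10 for DLX1-HA. As a share of merged peaks this was 0.0800% for SOX15-HA, 0.0707% for SOX2-HA and 0.0389% for SOX2-YPET OCT4-HA. It was 0.0497% for DLX1-HA, 0.0435% for CDX2-HA and 0.0347% for BHLHB8-HA. The highest shares were those of BRACHYURY-HA, at 0.278% (2 of 720 peaks), and MAX-HA, at 0.104% (4 of 3836 peaks).

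Every one of the 10 genes had a peak of at least 1 construct in its window, while 7.26% of all protein-coding genes had none. The windows held 208 peaks of all lists, against 150 that their length would hold at the mean density of the lists over the genome. Set against the windows of other genes, the typical window was not high. The median was 9.825 peaks per 100 kb for the 10 genes, against 14.65 over all protein-coding genes. The peaks were unevenly spread over the genes. Klf4 held 55, Tet1 49 and Lefty1 43, and the other 7 genes held 2 to 16 each. The number of constructs with a peak was 14 for Klf4, 13 for Tet1, 11 for Lefty1, 6 for Sall4, 5 each for Fgf4, Utf1 and Prdm14, 3 for Esrrb, and 2 each for Tdgf1 and Zfp42. The median was 5 constructs, against 7 over all protein-coding genes. Merging overlapping peaks of all lists gave 116 sites, of which 90 (77.6%) belonged to a single construct, close to the 76.3% of all 168506 sites. Of the 116 sites, 56 lay nearer to the start of another gene than to the gene whose window held them.

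**Figure D1:**
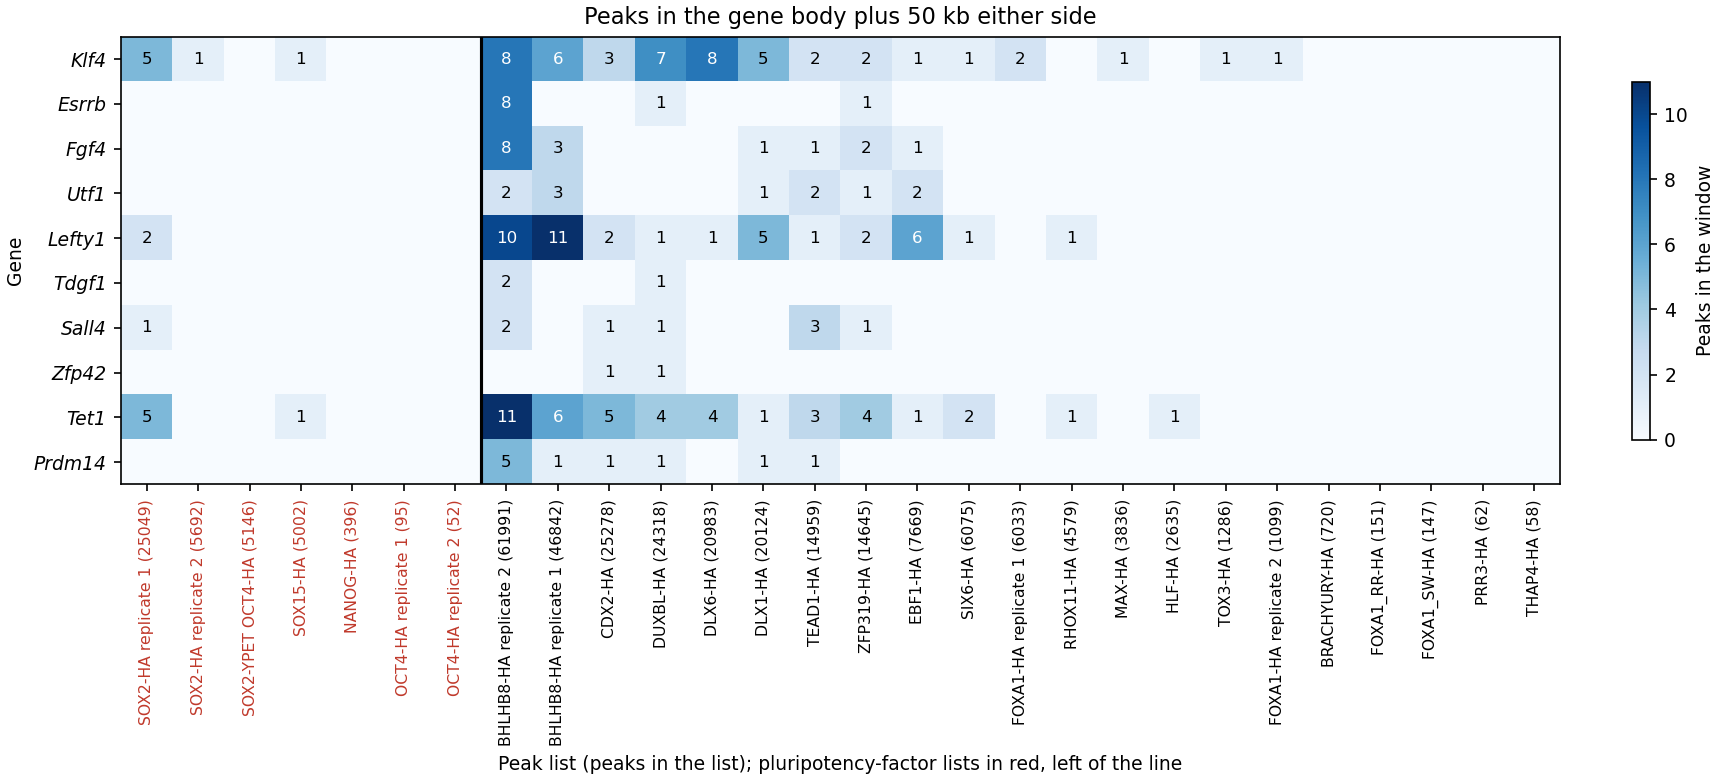
Number of peaks (colour and digits, blank for 0) in the window of each of the 10 genes (rows) for each of the 28 lists (columns, with the number of peaks in the list in brackets). The 7 pluripotency-factor lists stand left of the line: peaks appear for SOX2-HA and SOX15-HA at Klf4, Lefty1, Sall4 and Tet1, and the columns of SOX2-YPET OCT4-HA, NANOG-HA and OCT4-HA are empty.

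The pluripotency-factor lists were compared gene by gene. At least 1 of the 5 constructs had a peak at 4 of the 10 genes, Klf4, Tet1, Lefty1 and Sall4, against 62.8% of all protein-coding genes. Esrrb, Fgf4, Utf1, Tdgf1, Zfp42 and Prdm14 had no peak of any of the 5. The SOX2-HA replicate 1 list had 13 peaks at 4 genes, where 57.3% of all genes had a peak. The SOX2-HA replicate 2 list had 1 peak, at Klf4, where 25.6% of all genes had a peak. With either SOX2-HA list the count was 4 genes, against 57.8% of all genes. The SOX2-HA replicates therefore gave 7 ± 8.49 peaks in the windows (SD, n = 2), and replicate 1 is 4.40 times longer than replicate 2 (25049 and 5692 peaks). SOX15-HA had 2 peaks, at Klf4 and Tet1, where 22.0% of all genes had a peak. The remaining pluripotency-factor lists had no peak in any of the 10 windows. For OCT4-HA this was a count of 0 in lists of 95 and 52 peaks, where 0.725% and 0.351% of all genes had a peak (0.766% with either list). For NANOG-HA it was 0 in a list of 396 peaks, where 1.82% of all genes had a peak. For SOX2-YPET OCT4-HA it was 0 in a list of 5146 peaks, where 15.9% of all genes had a peak and 2.54 peaks would fall in the windows at the list's mean density. A count of 0 allows up to 3.16% and 5.77% of the OCT4-HA peaks, 0.758% of the NANOG-HA peaks and 0.0583% of the SOX2-YPET OCT4-HA peaks to lie in windows like these (3 counts of the total, counting error only). The OCT4-HA and NANOG-HA lists reached so few genes anywhere that a count of 0 among 10 is near their background. The 10 windows make up 0.0493% of the genome, below the 0.0583% allowed for SOX2-YPET OCT4-HA. Its count of 0 therefore does not set these windows apart from its mean density.

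Lists of similar length to that of SOX2-YPET OCT4-HA can be set beside it. The 6 lists of 5002 to 7669 peaks had 20 peaks in the windows, where their length gives 17.6. They were SOX15-HA with 2 peaks, SOX2-HA replicate 2 with 1, SIX6-HA with 4, FOXA1-HA replicate 1 with 2, EBF1-HA with 11 and SOX2-YPET OCT4-HA with 0. The 7 pluripotency-factor lists together had 16 peaks in the windows against 20.4 by length, and without SOX2-HA replicate 1 they had 3 against 8.08. The other 21 lists had 192 peaks against 130 by length. These values by length take the whole genome as background, not the windows of genes.

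Among the other constructs, BHLHB8-HA had peaks at 6 genes in replicate 1 and 9 genes in replicate 2, where 77.2% and 84.4% of all genes had a peak (86.0% with either list). DUXBL-HA reached 8 genes (64.2% of all genes), TEAD1-HA 7 (68.8%), ZFP319-HA 7 (59.4%), CDX2-HA 6 (56.4%), DLX1-HA 6 (60.5%), EBF1-HA 5 (38.8%) and DLX6-HA 3 (53.1%). SIX6-HA had peaks at 3 genes (27.8% of all genes) and RHOX11-HA at 2 (34.3%). These shares lay on either side of the background, and each rests on 10 genes, so that 1 gene is worth 10 percentage points. FOXA1-HA reached 1 gene, Klf4, in both replicates, where 27.5% and 6.66% of all genes had a peak (28.2% with either list). MAX-HA (23.0% of all genes) and TOX3-HA (10.1%) also reached Klf4 alone, and HLF-HA (15.6%) reached Tet1 alone. BRACHYURY-HA, FOXA1_RR-HA, FOXA1_SW-HA, PRR3-HA and THAP4-HA had no peak at any of the 10 genes, where 3.92%, 0.921%, 0.884%, 0.451% and 0.447% of all genes had one.

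**Figure D2:**
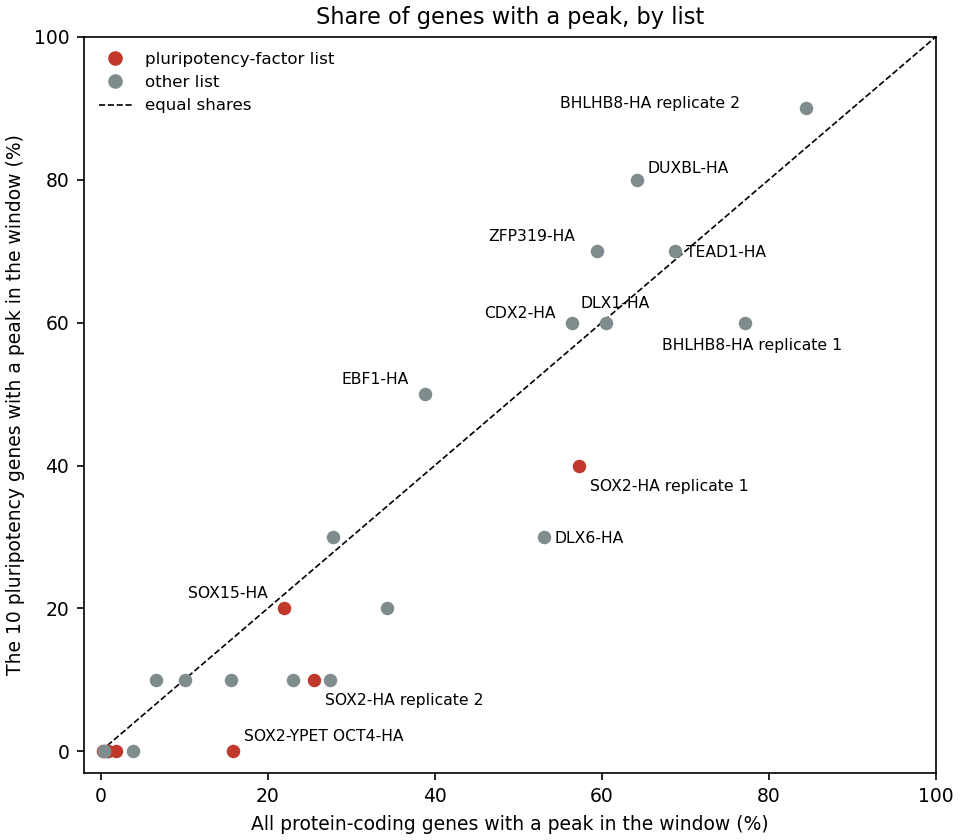
Share of the 10 genes with a peak in the window (vertical axis, percent) against the share of all 21938 protein-coding genes (horizontal axis, percent), 1 point per list, with pluripotency-factor lists in red and equal shares on the dashed line. SOX2-HA replicate 1, SOX2-HA replicate 2 and SOX2-YPET OCT4-HA lie below the line, at 57.3%, 25.6% and 15.9% of all genes, while SOX15-HA lies next to it.

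Whether a gene's window held peaks of more or fewer pluripotency-factor constructs than other constructs was tested with Fisher's exact test (two-sided, 5 against 19 constructs, duplicates merged) on each of the 21938 genes. With 5 against 19 constructs the lowest possible p is 2.35e-05, which for a lone gene becomes 0.516 after adjustment, so that at least 11 genes at that p would be needed for a call, and the absence of calls says little. None of the 10 genes passed. Klf4 had peaks of 2 of 5 pluripotency-factor constructs and 12 of 19 others (p = 0.615, Fisher's exact test), Tet1 of 2 and 11 (p = 0.630), Lefty1 of 1 and 10 (p = 0.327) and Sall4 of 1 and 5 (p = 1). Esrrb had peaks of 0 and 3, Fgf4, Utf1 and Prdm14 of 0 and 5 each, and Tdgf1 and Zfp42 of 0 and 2 each, with p of 0.544 or 1. The adjusted p was 1 for all 10 genes with Benjamini-Hochberg adjustment over all genes. Over all genes, 0% passed (0 of 21938 at an adjusted p under 0.05, 74 at an unadjusted p under 0.05), and the lowest unadjusted p was 0.0109. Of these 74 genes, 2 had the higher share among the pluripotency-factor constructs. OCT4-HA and NANOG-HA reached 0.766% and 1.82% of all genes, so peaks of all 5 constructs at a gene were seldom possible. Constructs differ widely in the number of their peaks, which this test does not take up. An exact permutation test of the peaks per 10000 peaks of each construct also called 0 genes, with 132 at an unadjusted p under 0.05.

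**Figure D3:**
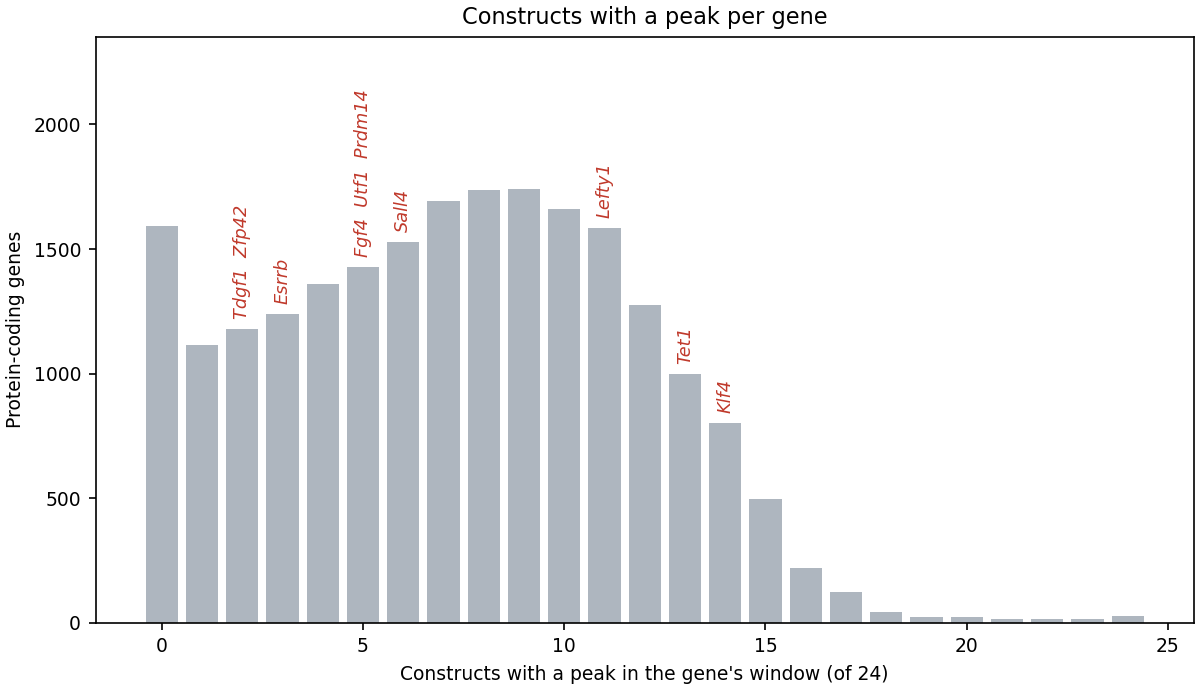
Number of protein-coding genes (bars) by the number of constructs, of 24, with a peak in the window, with the 10 genes named above the bar they fall in. Klf4, Tet1 and Lefty1 stand to the right, at 14, 13 and 11 constructs, and the other 7 genes at 2 to 6, below the median of 7.

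Among the transcription factor genes, Klf4 carried most of the peaks. KLF4 is a zinc-finger factor of naive pluripotency that fibroblasts also express. Its window on chromosome 4 holds no other protein-coding gene, and more constructs had a peak there than at 91.8% of all genes. Distances are given from the gene start, the start of the principal coding transcript, and are negative upstream. SOX2-HA replicate 1 had 5 peaks at Klf4, at 42.9 kb, 6.32 kb, -1.88 kb, -9.41 kb and -10.5 kb. SOX2-HA replicate 2 had its only peak in the 10 windows at -10.5 kb, inside the replicate 1 peak at chr4:55542772-55543188. That was the single site in the 10 windows found in both SOX2-HA lists. It also carried peaks of BHLHB8-HA, DLX1-HA, DLX6-HA and DUXBL-HA. SOX15-HA had 1 peak at Klf4, at 31.9 kb, which overlapped no peak of another construct. The site with the most constructs lay at 43.2 kb, a merged stretch at chr4:55488468-55489978. It held peaks of SOX2-HA, BHLHB8-HA, DLX1-HA, DLX6-HA, DUXBL-HA, EBF1-HA, FOXA1-HA, SIX6-HA and ZFP319-HA. Not all of them overlapped each other. The SOX2-HA peak overlapped peaks of 7 other constructs, but not the ZFP319-HA peak. These 9 constructs were the most at any merged site of the 10 windows. The site nearest the start, with its midpoint at -0.248 kb, held peaks of TEAD1-HA and TOX3-HA and of none of the 5 pluripotency-factor constructs.

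The middle 200 bases of the stretch shared by both SOX2-HA lists at Klf4, chr4:55542905-55543104 on the plus strand, are shown because that is the only replicated SOX2-HA site here. Capitals mark the SOX letters CNTTGT, which read ACAANG on the other strand. The stretch held 1 SOX match and no match to the octamer ATGCNAAT (a stricter form of the letters in the composite search). It also held no match to the NANOG-type letters TAATGG or the AP-1-type letters TGANTCA, in which any middle base counts.
Klf4 upstream site: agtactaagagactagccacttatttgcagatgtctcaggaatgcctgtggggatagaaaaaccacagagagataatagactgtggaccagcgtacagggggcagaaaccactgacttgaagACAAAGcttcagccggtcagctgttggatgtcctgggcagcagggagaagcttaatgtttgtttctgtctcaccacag

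Sall4 encodes a zinc-finger factor that supports ES cell self-renewal and activates Pou5f1. Its window on chromosome 2 held 9 peaks of 6 constructs, and no peak overlapped a peak of another construct. The single SOX2-HA peak, from replicate 1, lay at -23.97 kb (chr2:168791021-168791313). It was the only SOX2-HA site in the 10 windows without a peak of another construct. The nearest site to the start was a TEAD1-HA peak at 0.273 kb, and further TEAD1-HA peaks lay at 1.04 kb and, near the Atp9a start, at 25.6 kb. BHLHB8-HA, CDX2-HA, DUXBL-HA and ZFP319-HA held the other peaks. The middle 200 bases of the SOX2-HA peak, chr2:168791067-168791266 on the plus strand, held 4 SOX matches (capitals, as at Klf4), the most among the SOX2-HA peaks of the 10 windows, and none of the other 3 motifs.
Sall4 upstream site: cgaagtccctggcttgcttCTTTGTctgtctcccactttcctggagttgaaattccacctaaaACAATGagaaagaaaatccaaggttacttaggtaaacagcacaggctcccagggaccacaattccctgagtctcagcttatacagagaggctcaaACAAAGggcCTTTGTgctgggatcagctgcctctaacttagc

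The other 4 transcription and chromatin factor genes had no peak of a pluripotency-factor construct. Esrrb encodes an orphan nuclear receptor of the naive network. Its window, the longest at 261 kb, held 10 peaks of 3 constructs at 10 separate sites, of which 8 came from BHLHB8-HA replicate 2 and 0 from replicate 1. The nearest peak to the Esrrb start was of DUXBL-HA at -10.5 kb, in an intron of the longer transcript. Zfp42 encodes REX1, a zinc-finger marker of undifferentiated cells. Its window held 2 peaks, the fewest of the 10, of CDX2-HA at 16.5 kb and of DUXBL-HA at 28.3 kb. Prdm14 encodes a PR-domain factor that represses differentiation and DNA methylation genes. Its window held 10 peaks of 5 constructs, with BHLHB8-HA and DLX1-HA sharing an intronic site at 7.08 kb and BHLHB8-HA nearest the start at 4.69 kb. Utf1 encodes a chromatin factor of undifferentiated ES cells. Its window held 11 peaks of 5 constructs. A TEAD1-HA peak lay at 0.351 kb, over the coding exon, and BHLHB8-HA and DLX1-HA shared a site at 27.8 kb, nearer to 6430531B16Rik.

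The Zfp42 promoter was the only promoter with an octamer match (ATGCNAAT) among the 7 of the 10 genes that had one in the RefSeq promoter table (GRCm38.p6, 250 bases before to 50 after the start), where 3.15% of all 32851 promoters had one. It lay at -186 bp from the RefSeq start (chr8:43307188-43307195), on the strand opposite to the gene, and 16.6 kb from the nearest peak of any list. Capitals mark the octamer, which reads ATGCNAAT on the other strand.
Zfp42 promoter: ctgaagaggcATTTGCATaactgagcaa

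Tet1 encodes an enzyme that oxidises 5-methylcytosine and is highly expressed in ES cells. Its window on chromosome 10 held 49 peaks of 13 constructs, more constructs than at 87.2% of all genes, and it includes the starts of Ccar1, Slc25a16 and Dna2. SOX2-HA replicate 1 had 5 peaks. They lay in Tet1 introns at 33.7 kb, 47.9 kb, 55.2 kb and 58.2 kb and at 107 kb, where the peak was -0.2 kb from the Ccar1 start. SOX2-HA replicate 2 had none of these. SOX15-HA had 1 peak, at 58.3 kb, which overlapped the SOX2-HA peak there. This intronic site, chr10:62840706-62841091, was the only one in the 10 windows with both SOX2-HA and SOX15-HA, and BHLHB8-HA, DLX6-HA and SIX6-HA had peaks on it too. The site with the most constructs, 8, lay at 47.8 kb and held BHLHB8-HA, DLX1-HA, DLX6-HA, DUXBL-HA, EBF1-HA, HLF-HA, SOX2-HA and ZFP319-HA. The peak nearest the Tet1 start was of BHLHB8-HA at 20.6 kb, in a coding exon. The 3 TEAD1-HA peaks of the window lay at Ccar1, Slc25a16 and Dna2.

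The middle 200 bases of the stretch shared by SOX2-HA and SOX15-HA, chr10:62840736-62840935 on the plus strand, are shown as the only site of both SOX constructs. Capitals mark the longer match to the AP-1-type letters (TGANTCA on either strand), which comes before the shorter SOX match. There was 1 match of each and no octamer. The letters TGANTCA allow any middle base, here A, and are looser than the AP-1 site itself.
Tet1 intron site: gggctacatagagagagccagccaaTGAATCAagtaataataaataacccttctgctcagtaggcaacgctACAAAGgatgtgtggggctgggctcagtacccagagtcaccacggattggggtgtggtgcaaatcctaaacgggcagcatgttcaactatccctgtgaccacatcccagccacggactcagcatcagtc

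Among the signalling genes, Lefty1 was the only one with a pluripotency-factor peak. LEFTY1 is a secreted inhibitor of Nodal signalling. Its window on chromosome 1 also holds other genes, among them its relative Lefty2, and 20 of its 22 sites lay nearer to the start of another gene. SOX2-HA replicate 1 had peaks at -3.64 kb and -21.0 kb, and replicate 2 had none. The site at -3.56 kb was the nearest to the Lefty1 start and also held BHLHB8-HA, CDX2-HA and DLX1-HA. The site at -21.3 kb had the most constructs, 5, with SOX2-HA, BHLHB8-HA, DLX1-HA, DLX6-HA and SIX6-HA. Fgf4 encodes a fibroblast growth factor that primes ES cells for differentiation. Its window, shared with Fgf3, Fgf15 and LTO1, held 16 peaks of 5 constructs, and 9 of its 11 sites lay nearer to another gene. A TEAD1-HA peak lay at 0.232 kb from the Fgf4 start, and BHLHB8-HA, DLX1-HA and EBF1-HA shared a site at 54.1 kb over LTO1. Tdgf1 encodes CRIPTO, a co-receptor for Nodal. Its window held 3 peaks, of BHLHB8-HA replicate 2 at 29.5 kb and 47.9 kb and of DUXBL-HA at -33.5 kb, and each lay nearer to another gene.

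**Figure D4:**
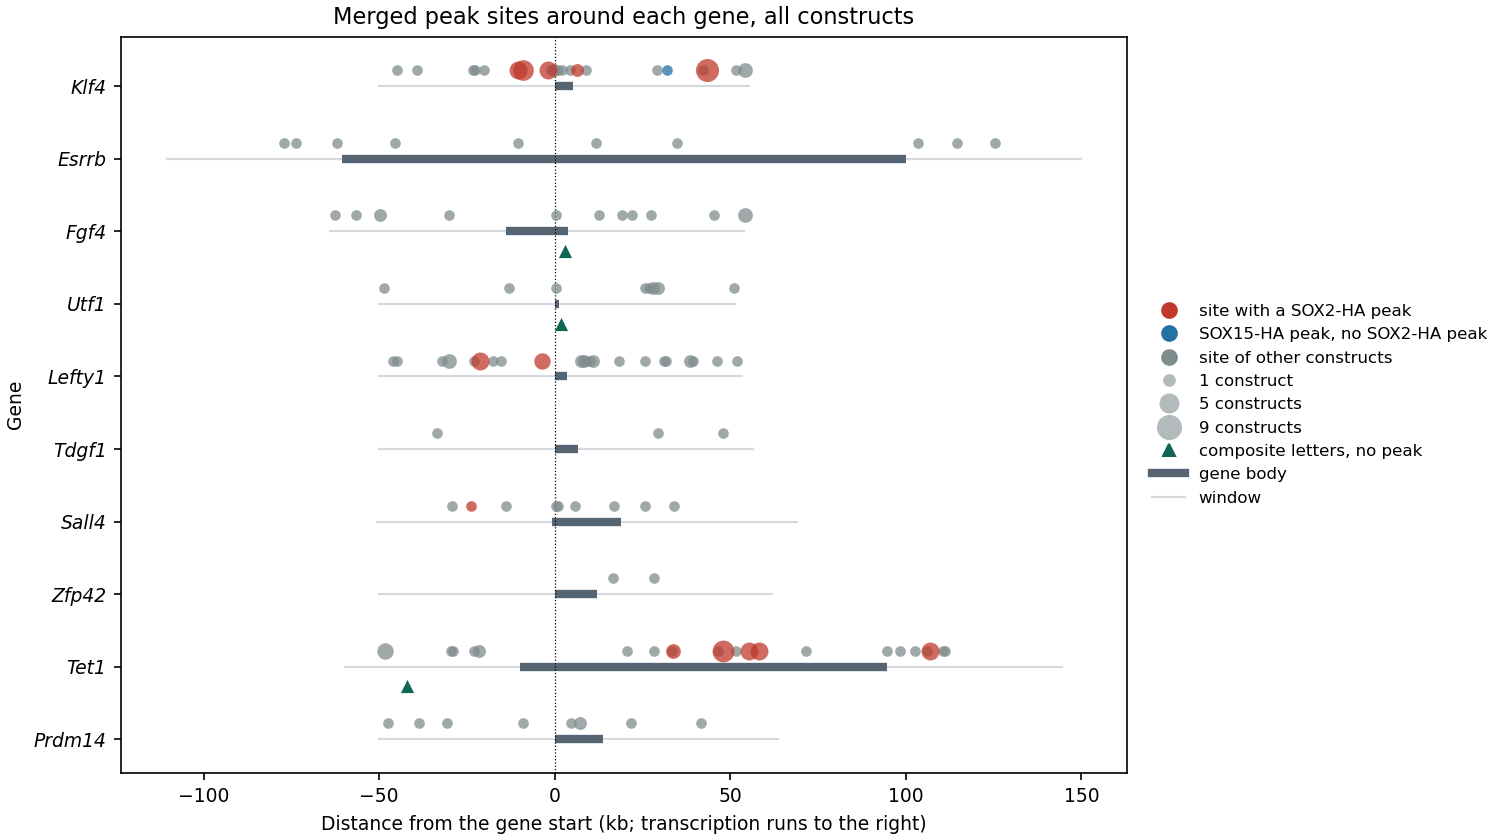
Merged peak sites of all lists (circles, larger with more constructs) around each of the 10 genes by distance from the gene start in kb, with the gene body as a bar, the window as a thin line and the composite matches as triangles below it. Red circles, sites with a SOX2-HA peak, occur at Klf4, Lefty1, Sall4 and Tet1. The triangles at Fgf4, Utf1 and in the Tet1 window lie 1.24 kb or more from any peak.

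The distance from each gene start to the nearest peak of each pluripotency-factor construct extends this beyond the windows. For SOX2-HA it was 1.88 kb at Klf4, 3.64 kb at Lefty1, 23.97 kb at Sall4 and 33.7 kb at Tet1. For the 6 genes without a peak it ran from 108 kb at Utf1 and 115 kb at Prdm14 through 155 kb at Tdgf1, 177 kb at Fgf4 and 236 kb at Esrrb to 1149 kb at Zfp42. SOX15-HA lay nearest at Klf4 (31.9 kb) and farthest at Zfp42 (2006 kb). SOX2-YPET OCT4-HA lay nearest at Klf4, where its peak at 79.8 kb was outside the window, then at Fgf4 (180 kb), and farthest at Tdgf1 (2244 kb). For OCT4-HA the nearest peak of all was 1.70 Mb away, at Utf1, and at Klf4 it was 44.6 Mb away. For NANOG-HA the nearest was 0.841 Mb away, at Klf4.

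At the gene starts themselves, none of the 5 pluripotency-factor constructs had a peak within 1 kb of the start of any of the 10 genes, where 5.07% of all genes had one. TEAD1-HA had one at 4 genes, Klf4, Fgf4, Utf1 and Sall4, where 30.2% of all genes had one. With all lists together the same 4 genes had a peak within 1 kb of the start, against 58.0% of all genes, and the starts of Esrrb, Zfp42, Prdm14, Tet1, Lefty1 and Tdgf1 had none.

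SOX2-HA sites in the 10 windows were seldom sites of SOX2-HA alone. Of the 13 merged SOX2-HA peaks, 12 (92.3%) overlapped a peak of another construct and 11 (84.6%) a BHLHB8-HA peak, against 76.3% and 55.7% of all 25452 merged SOX2-HA peaks. In the middle 200 bases, 9 of the 13 replicate 1 peaks (69.2%) held the SOX letters CNTTGT, against 60.7% of all peaks of that list, and both SOX15-HA peaks held them, against 67.3% of that list. The octamer ATGCNAAT was in 0 of the 13 peaks (2.29% of the list), and TGANTCA was in 3 (23.1%, against 36.9% of the list). The letters TAATGG were in 0 of the 13 (7.80% of the list) and in the SOX15-HA peak at Klf4 (7.52% of that list). The SOX letters CNTTGT are common, and in lists of the other constructs their share ran from 16.8% (TEAD1-HA) to 49.7% (FOXA1-HA replicate 1). SOX2-YPET OCT4-HA, with no peak in the windows, held them in 33.1% of all its peaks. The octamer was in 1.77% of its peaks, against 10.5% and 3.85% for OCT4-HA replicates 1 and 2. With 13 SOX2-HA replicate 1 peaks in the windows, 1 peak is worth 7.69 percentage points, and none of these shares was tested.

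A list of 38 further pluripotency genes was set beside the 10. At least 1 of the 5 pluripotency-factor constructs had a peak at 26 of them (68.4%, against 62.8% of all genes), and at least 2 had a peak at 11 (28.9%, against 27.8%). These 11 were Pou5f1, Nanog, Nr5a2, Lefty2, Jarid2, Mycn, Rif1, Zfp281, Stat3, Phc1 and Spp1. SOX2-YPET OCT4-HA had a peak at 11 of the 38 (28.9%, against 15.9%), among them Pou5f1 and Sox2, which its construct encodes. It had no peak at the 10 genes, where its share over all genes gives 1.59 genes. The difference between these sets was not tested. A single SOX2-YPET OCT4-HA peak counted for both Dppa3 and Gdf3, whose windows overlap. The SOX2-HA peaks described at Lefty1 also counted for Lefty2, which had further SOX2-HA and SOX15-HA peaks. Some of the peaks lay over genes that the constructs themselves encode. SOX2-YPET OCT4-HA had peaks over the coding exon of Sox2 (at 0.532 kb) and over Pou5f1 (at 3.73 kb), and NANOG-HA had a peak over Nanog (at 4.96 kb). OCT4-HA had no peak in the Pou5f1 window and SOX2-HA none in the Sox2 window, although these constructs encode the same factors. Whether the peaks over the encoded genes are reads of the transgene was not tested. Without SOX2-HA replicate 1, 17 of the 38 genes had a peak of the 5 constructs. Without Pou5f1, Sox2 and Nanog, 23 of 35 genes had a peak of the 5 constructs. Jarid2 was the only one of the 38 with all 5 constructs, at an intronic position 139 kb from its start, and 23 of the 24 constructs had a peak in its window.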

How the data were processed

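ChIP-seq peaks of HA-tagged transcription factors in NIH-3T3 cells were analysed. Per the labels and the study's methods, the authors mapped paired-end reads to mm10 with STAR (2.5.3a), removed duplicates with Picard, called peaks in each sample separately with MACS2 (2.1.1.20160309), and left out those found in the input or in blacklisted regions. deepTools (2.4.2) is also named in the submitters' processing notes. The deposited files give chromosome, start and end of each peak, with no score, height or read number, so depth per sample and the precision of a peak are unknown. The lists differ in length (52 to 61991 peaks), so counts are given beside each list's share over all genes. The input sample has no list and was not used.

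Peaks were read as deposited (0 of 304922 lay beyond the ends of the GRCm38 chromosomes). Gene bodies and principal transcript starts came from the mm10 GENCODE annotation, and sequence from GRCm38. A peak counted for a gene when at least 1 bp lay within the gene body plus 50 kb on either side. For counts per construct, duplicate lists were merged. Occupancy was compared between constructs with Fisher's exact test per gene and Benjamini-Hochberg adjustment over 21938 protein-coding genes (Python 3.11.15, NumPy 2.4.6, SciPy 1.17.1, figures with Matplotlib 3.10.9). Counting and testing were tested on simulated data with planted peaks and genes. Apart from the planted genes, that simulation gave all constructs an equal share of occupied genes, unlike the lists here. It does not show that the test can call genes in these data. All 10 genes are named. Within each window, every pluripotency-factor peak, the site with the most constructs (ties by distance to the start) and the site nearest the start are described. Of the 38 further genes, those with peaks of 2 or more pluripotency-factor constructs are named. Other names were chosen after the values were seen, and some genes of these windows and lists are not reported here. The 10 genes, the 38 further genes, the motifs and the tests were chosen with earlier results of these data known. Alternatives were the width of the window, the overlap rule, a minimum peak width of 300 bp, removal of sites shared by 10 or more constructs, leaving out a replicate (all duplicated constructs together, or SOX2-HA or OCT4-HA alone, the latter chosen after seeing the data), other tests and other spacings of the composite element.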

Additional observations from a re-analysis of the deposited data

How the results depend on the processing

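Of 73 recomputed counts, 60 stayed within 1.5 times the reported value. Many of the 60 are counts of 0 with little room to move, for OCT4-HA, NANOG-HA, the tests and the composite matches. Leaving out a replicate also cannot change the counts of SOX15-HA, NANOG-HA and SOX2-YPET OCT4-HA, which have 1 list each. The 60 is therefore no measure of stability. The windows held 91 peaks of all lists with 10 kb on either side, 337 with 100 kb and 128 with peaks of at least 300 bp only, against 208. With 10 kb on either side, 1 gene (Tdgf1) had no peak in any list, SOX15-HA had a peak at 1 gene (Tet1), and 14 of the 38 further genes had a pluripotency-factor peak. With peaks of at least 300 bp, 1 gene (Zfp42) had no peak in any list, and SOX15-HA had a peak at 0 genes. With 100 kb on either side, SOX2-YPET OCT4-HA had a peak at 1 gene, Klf4. Here the wider or narrower window, or the loss of narrow peaks, is itself the cause. Leaving out each replicate in turn gave 1 to 4 genes with a SOX2-HA peak (1 without replicate 1, 4 without replicate 2), 16 to 26 of the 38 further genes with a pluripotency-factor peak, and 150 to 163 peaks of all lists. These settings leave out that replicate of all 4 duplicated constructs. In alternatives chosen after seeing the data, leaving out SOX2-HA replicate 1 alone gave 1 gene with a SOX2-HA peak and 17 further genes, and leaving out OCT4-HA replicate 1 alone gave 25 further genes. Fisher's exact test was repeated with both other windows, peaks of at least 300 bp, without shared sites, without short lists and without a replicate, but not with the midpoint rule. It gave 11 to 352 genes at an unadjusted p under 0.05 and 0 after adjustment, and since the lowest possible p limits the calls, a count of 0 is no sign of stability. Of the composite matches, 0 lay under a peak with spacers of 1 base or of 0 to 4 bases, with 100 kb on either side, or within 500 bp of a peak.

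The labels number the lists of 4 constructs. With the replicate number as a block (8 lists, labels permuted within each number), 0 genes were called, and 0 had an unadjusted p under 0.05. The comparison was two-sided, and swapping the groups in every block gives a difference of the same size. No p under 0.05 was therefore possible, and these counts of 0 say nothing. Same-numbered lists deviated from their construct means with correlations of -0.0201 to 0.149 over genes, so the numbers were not taken as pairs.

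A gene without a peak in the OCT4-HA, NANOG-HA or SOX2-YPET OCT4-HA lists is a gene not called at that length, not a gene shown to be unbound.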

Other observations

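The SOX2-YPET OCT4-HA list was uneven over chromosomes. Chromosome 1 held 967 of its 5146 peaks (18.8%), where the chromosome holds 7.17% of the assembled sequence, and this was the highest share among the 28 lists, followed by RHOX11-HA with 14.8% and DUXBL-HA with 11.9%. Lefty1 and Prdm14 lie on chromosome 1, and the nearest SOX2-YPET OCT4-HA peaks were 277 kb and 209 kb from their starts. Where on the chromosome the peaks lie was not tested.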
